A study of Oryza sativa Japonica Group with 36 samples.

Results

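Light-harvesting and photosystem I proteins were followed through 5 rice genes, PSAG, PSAH, CAB2R, LHCP and LOC_Os07g38960, out of 17905 genes that have at least 1 probe set of their own on the Affymetrix rice genome array. The genes were found by symbol or synonym in the probe and RefSeq gene tables, or for LOC_Os07g38960 by the locus number that the study pairs with a probe set. Each gene was read from its brightest probe set, and the second probe sets of PSAG, CAB2R and LOC_Os07g38960 are given beside it, which makes 8 probe sets in all. LHCP is a synonym of 3 genes in the RefSeq table, and here it is the gene also called RCABP89. LOC_Os07g38960 stands in a list of cold-repressed genes that the study drew from these same arrays, so its direction in the cold is not independent of that choice.

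K354 and C418 were each held at 4 °C, sampled at 5 times between 2 h and 48 h, and set against shoots of the same line kept at 25 °C as control. Each of the 12 groups had 3 arrays, 36 in all, and each array came from the pooled seedlings of 1 pot. K354 is a cold tolerant BC2F6 introgression line that carries segments of the indica variety Bg300 in the background of C418, the cold sensitive japonica parent, and being 1 line of each kind they do not stand for tolerant and sensitive rice in general. All samples were whole shoots at the 3-leaf stage. The control pooled shoots taken at 2 h and at 24 h, so that it matches the hour of the 2, 24 and 48 h cold samples in part and that of the 6 and 12 h samples not at all. For 6 and 12 h an effect of the hour cannot be told apart from one of the cold.

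Photosystem I and photosystem II are the pigment-protein complexes of the thylakoid membrane that turn light into electron flow. Around each core sit light-harvesting proteins that bind chlorophyll a and b and pass excitation inwards, and chlorophyll and these proteins accumulate together. In plants generally, the nuclear genes of the light-harvesting proteins are among the most abundantly transcribed in green leaves, follow light and the circadian clock, and are repressed when the chloroplast is under stress.

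The 3 arrays of a group correlated at r = 0.979 to 0.996 over log2 intensities of all probe sets, and arrays of different groups at 0.879 to 0.992. The deposited intensities are on a linear scale, with array medians of 55.5 to 67.9 and highest values of 14183 to 15476. RBCS, the Rubisco small subunit of green tissue, averaged 83.4% or more of the highest value of its array in the controls and at 48 h, and none of 3 root markers (NIP2-1, LSI2 and PHT1-6) lay below the 25th percentile of every array. The 3 root markers summed to 205 to 259 in K354 at 48 h, against 228 to 283 in its control, and to 140 to 185 in C418 at 48 h, against 206 to 221 in its control. PHT1-6 averaged 82.5 in K354 at 48 h, against 9.83 in its control, and 27.4 in C418 at 48 h, against 10.3 in its control, and its control arrays lay below the 25th percentile in both lines. The 6 seed storage genes summed to 810 to 930 in K354 at 48 h, against 851 to 931 in its control, and to 684 to 829 in C418 at 48 h, against 853 to 899 in its control, with 2 of 6 below the 25th percentile on all arrays. The part of root or seed tissue in the results below was not tested.

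The control RNAs that are added to every sample changed with the cold. At 48 h the 27 hybridization control probe sets stood 0.67 higher on the log2 scale than in the control in K354 and 0.81 higher in C418, and the 36 poly-A control probe sets 1.35 and 1.46 higher. The shift was smaller at high intensity. The bioB controls, at 205 to 382 in the K354 control and 200 to 352 in the C418 control, gained a mean of 0.93 in K354 and 1.12 in C418, whereas the cre controls, at 7720 to 11100 in the K354 control and 7520 to 11000 in the C418 control, gained 0.17 and 0.20. In the controls CAB2R and LHCP, at 12491 to 13310 and 12584 to 13035, read above the cre controls. After scaling each array to its hybridization controls, the log2 change over all probe sets had a median of -0.70 in K354 and -0.83 in C418 at 48 h, and that of LHCP, for example, was -0.96 and -1.64. The part of the control RNA shift in the results was not tested.

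Across the 5 genes, the number that fell in the cold was tested with limma on log2 intensities, at a Benjamini-Hochberg adjusted p under 0.05 over 57258 probe sets. In K354, 1, 1, 1, 3 and 5 of 5 genes were lower at the 5 successive times, where 20.2%, 12.8%, 19.3%, 21.8% and 27.1% of all probe sets were. In C418, the corresponding counts were 3, 2, 4, 4 and 5 of 5 genes, with 21.7%, 13.5%, 16.5%, 22.5% and 28.3% of all probe sets. LOC_Os07g38960 is 1 of the genes in each of these counts, and the only gene called in K354 at 2, 6 and 12 h. As it was taken from a list of genes repressed on these arrays, its calls are not independent evidence, and the median below includes it. All cold comparisons of a line share its 3 control arrays. The median log2 change of the 5 genes at 48 h was -0.69 in K354 and -1.60 in C418, against -0.03 and -0.02 over all probe sets. In bulk shoots, fewer cells that transcribe a gene and less RNA in each cell cannot be told apart. The early calls in C418 were fragile. At 2 h and at 6 h 1 gene was still called after quantile normalization or median centring of the arrays. Of all probe sets 11.4% and 10.6% were then lower in C418 with quantile normalization, and 10.3% and 10.6% with median centring. Leaving out any single array left 1 or 2 genes at either time. As deposited, all probe sets together stood at a median of -0.12 in K354 and -0.13 in C418 at 2 h on the log2 scale.

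**Figure D1:**
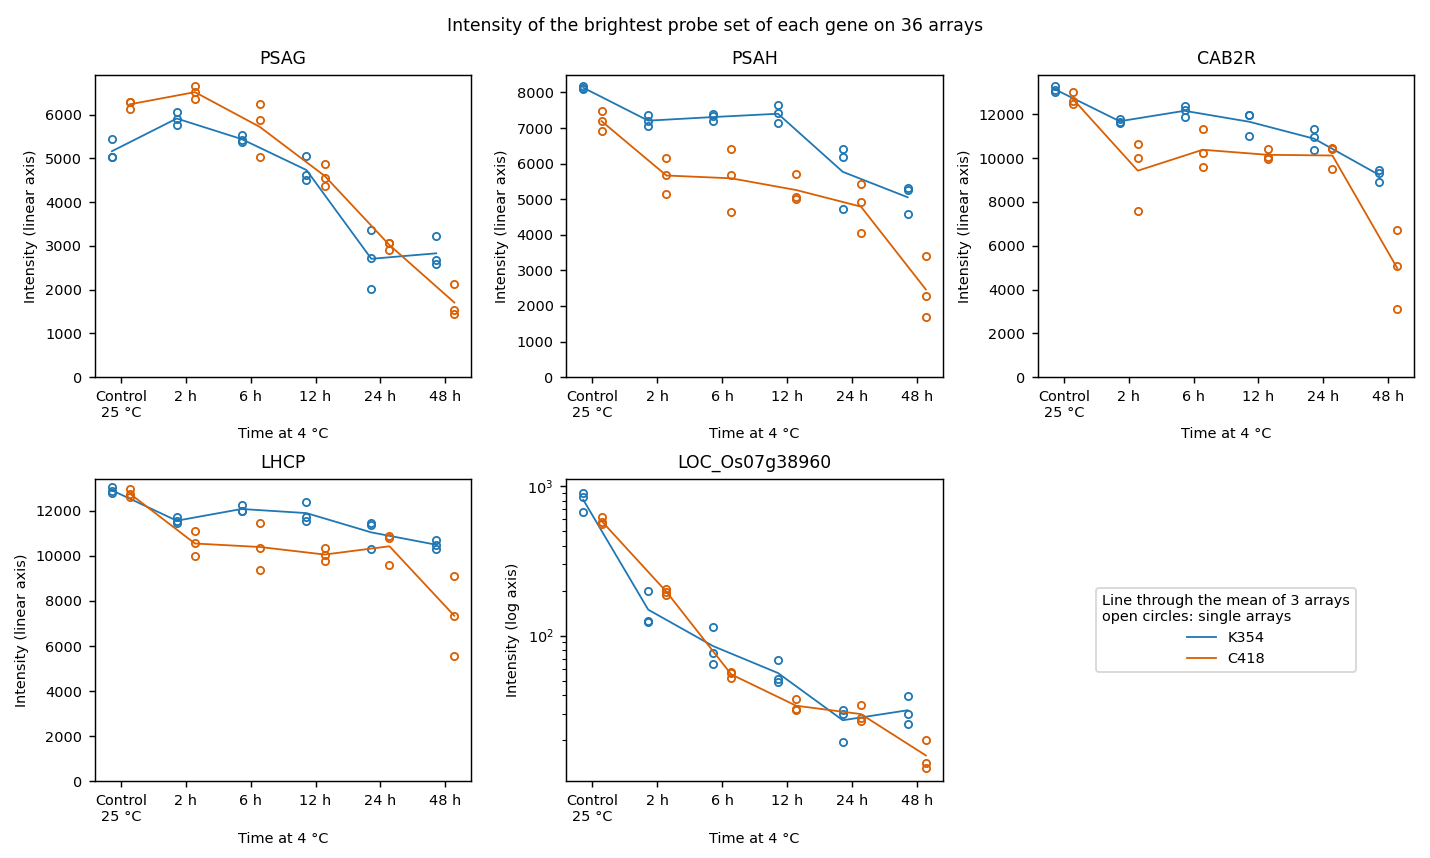
Intensity of the brightest probe set of each gene on each of 36 arrays (open circles), with a line through the mean of 3 arrays, for K354 and C418 in the control and after 2 to 48 h at 4 °C. The axis is linear from 0 except for LOC_Os07g38960, which has a log axis. At 48 h the 3 arrays of K354 lie above the 3 arrays of C418 for all 5 genes, and the share of all probe sets that do so is not given.

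PSAG encodes a small membrane-spanning subunit of photosystem I that in Arabidopsis sits on the side where the light-harvesting complex of photosystem I docks. Its change did not pass the test at 2 or 6 h, and it fell later in both lines. In K354, PSAG read 2727, 3366 and 2024 at 24 h and 3226, 2684 and 2583 at 48 h, against 5434, 5038 and 5022 in the control. In C418 it read 3071, 3073 and 2915 at 24 h and 1448, 1530 and 2140 at 48 h, against 6286, 6133 and 6297 in the control. None of these cold arrays overlapped the control of its line. The log2 change in K354 was 0.20, 0.08, -0.13, -0.96 and -0.87 in order of time (SE 0.13 at each time), of which the last 2 passed the test (adjusted p = 5e-07 and 1.7e-06). In C418 it was 0.06, -0.13, -0.44, -1.05 and -1.89 (SE 0.13), and the last 3 passed (adjusted p = 0.0096 at 12 h, 1.1e-07 at 24 h and 3.8e-13 at 48 h). Between 24 and 48 h the arrays of K354 overlapped, whereas each C418 array at 48 h lay below each C418 array at 24 h.

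The second probe set of PSAG moved the other way. It was dim, and in K354 it read 249, 236 and 254 at 48 h, against 139, 158 and 124 in the control. In C418 it read 162, 182 and 163 at 48 h, against 111, 114 and 112 in the control. Cold and control arrays did not overlap in either line. At 6, 12, 24 and 48 h its log2 change was 0.63, 0.87, 0.55 and 0.82 in K354 and 0.73, 0.80, 0.77 and 0.59 in C418 (SE 0.13), with an adjusted p of 0.00092 or less at each of these times. Over the 12 group means the 2 probe sets of PSAG correlated at r = -0.42, with the arrays as shared source. The direction given for PSAG is therefore that of its bright probe set, and which transcript the dim probe set reads was not tested.

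PSAH encodes a subunit of photosystem I that in Arabidopsis lies where the mobile light-harvesting complex of photosystem II binds during state transitions. It fell late in K354 and more deeply in C418. In K354, PSAH read 6175, 6416 and 4714 at 24 h and 5312, 5252 and 4597 at 48 h, against 8105, 8110 and 8178 in the control. In C418 it read 4912, 5417 and 4045 at 24 h and 1690, 3410 and 2294 at 48 h, against 6917, 7474 and 7190 in the control. Again no cold array at these times reached the control of its line. The log2 change in K354 was -0.17, -0.15, -0.14, -0.51 and -0.69 (SE 0.16), with an adjusted p of 0.0097 at 24 h and 0.00051 at 48 h. In C418 it was -0.35, -0.38, -0.45, -0.60 and -1.60 (SE 0.16), and the change passed the test at 12 h (adjusted p = 0.028), 24 h (0.0027) and 48 h (6.4e-10). The K354 call at 24 h was lost without K354 24 h replicate 3 (adjusted p = 0.091). The C418 call at 12 h was lost without C418 12 h replicate 1 or 3 and without C418 control replicate 2 or 3 (adjusted p up to 0.087).

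CAB2R is a chlorophyll a/b-binding protein of the light-harvesting complex. Its intensities were close to the top of the scale, at a mean of 60.2% of the highest value of the array in K354 at 48 h and 91.2% in the K354 control, and at 33.6% in C418 at 48 h and 86.7% in the C418 control. In K354, CAB2R read 9483, 9313 and 8908 at 48 h, against 13100, 13034 and 13310 in the control. In C418 it read 3108, 6737 and 5087 at 48 h, against 12596, 13011 and 12491 in the control. The C418 arrays at 48 h spanned more than a doubling of intensity and still lay below every other array of the series. The log2 change in K354 was -0.17, -0.11, -0.17, -0.27 and -0.51 (SE 0.15), and it passed the test at 48 h (adjusted p = 0.0054). In C418 it was -0.44, -0.29, -0.32, -0.33 and -1.42 (SE 0.15), and it passed at 2 h (adjusted p = 0.026) and 48 h (2.7e-09). At 2 h C418 replicate 1 read 7606, below the 10021 and 10660 of the others, and without it the log2 change was -0.30 (adjusted p = 0.18). The call was also lost without any 1 of the 3 control arrays, and under quantile normalization or median centring.

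The second probe set of CAB2R showed the same course with larger changes. In K354 it read 6411, 6544 and 5740 at 48 h, against 12313, 12488 and 12183 in the control, and in C418 1043, 3565 and 2186 at 48 h, against 11214, 11454 and 11976 in the control. The log2 change at 48 h was -0.99 in K354 (SE 0.26, adjusted p = 0.0024) and -2.52 in C418 (SE 0.26, adjusted p = 2.3e-09). Over the 12 group means the 2 probe sets correlated at r = 0.998. By the naming of the array the suffix of this probe set marks probes shared by transcripts of several genes, and as light-harvesting genes are near-identical copies, the value of CAB2R may include RNA of its relatives.

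LHCP, a further chlorophyll a/b-binding protein of the light-harvesting complex, averaged 68.4% of the highest value of the array in K354 at 48 h and 89.5% in its control, and 49.6% in C418 at 48 h and 87.0% in its control. In K354 it read 10480, 10678 and 10308 at 48 h, against 12777, 13035 and 12891 in the control, and in C418 5579, 9110 and 7331 at 48 h, against 12584, 12715 and 12940 in the control. Cold and control arrays did not overlap in either line. The log2 change in K354 was -0.16, -0.10, -0.12, -0.23 and -0.30 (SE 0.10), and it passed the test at 48 h (adjusted p = 0.016). In C418 it was -0.28, -0.30, -0.34, -0.29 and -0.82 (SE 0.10), with an adjusted p of 0.045, 0.035, 0.011, 0.022 and 6.6e-08. The C418 calls at 2 h and 6 h did not hold under quantile normalization (adjusted p = 0.14 and 0.09) or median centring (0.45 and 0.11). The call at 2 h was lost without any 1 of its 6 arrays, and that at 6 h without C418 6 h replicate 2 or 3 or any 1 of the 3 control arrays. At 24 h the call was lost without C418 24 h replicate 3 (0.11) and without C418 control replicate 3 (0.061).

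LOC_Os07g38960 is annotated by the study as a chlorophyll a/b-binding protein, and its course stood apart from that of the other 4 genes. It was lower at the earliest time in both lines, and its changes were larger than those of the other 4 genes at every time. The course was not particular to it. LOC_Os04g59440, a gene outside the 5 that is annotated as a chlorophyll a/b-binding protein, changed by a log2 value of -2.09 in K354 and -2.24 in C418 at 2 h. At 24 h that gene had -3.88 in K354 and -4.32 in C418. In K354, LOC_Os07g38960 read 848, 905 and 671 in the control, 200, 124 and 123 at 2 h, 114, 76.8 and 64.3 at 6 h, 48.7, 68.3 and 51.5 at 12 h, 31.9, 30.0 and 19.4 at 24 h and 30.1, 39.2 and 25.6 at 48 h. In C418 it read 580, 618 and 556 in the control, 206, 187 and 196 at 2 h, 56.6, 56.0 and 52.3 at 6 h, 32.5, 37.7 and 31.6 at 12 h, 28.2, 26.7 and 34.5 at 24 h and 20.1, 14.1 and 13.1 at 48 h. Every cold array was below every control array of its line. The log2 change in K354 was -2.47, -3.28, -3.85, -4.92 and -4.69 (SE 0.21), with an adjusted p of 1.0e-09 or less at each time. In C418 it was -1.57, -3.41, -4.11 and -4.30 at 2, 6, 12 and 24 h (SE 0.21), with an adjusted p of 2e-06 or less. At 48 h all 3 C418 arrays lay below the 25th percentile of their array (27.4 to 28.2), so the decrease there is given as a bound, at least 21.0-fold (adjusted p = 5.2e-18). In K354 at 48 h 1 of 3 arrays lay below that percentile.

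LOC_Os07g38960 was the only one of the 5 genes that changed by more than 5-fold at an adjusted p under 0.05. The study also asked for more than 5-fold, with an unadjusted p from another test. It passed at all times in K354, where 0.0786%, 0.124%, 0.185%, 0.313% and 0.568% of all probe sets were called lower by this rule in order of time, and at 6 h and later in C418, with 0.0978%, 0.197%, 0.341% and 1.01% (0.0751% at 2 h, where it did not pass). Its second probe set was dim, at a mean of 32.7 in the K354 control and 27.0 in the C418 control, and its highest value on any array was 34.8. In 9 of the 10 cold groups its 3 arrays lay below the 25th percentile, and its change did not pass in K354 at 2 h (adjusted p = 0.086) or 12 h (0.061) or in C418 at 2 h (0.3). Where it passed, its decrease could be bounded only as at least 1.03-fold to 1.04-fold in C418 and 1.13-fold to 1.16-fold in K354. The 2 probe sets correlated at r = 0.90 over the 12 group means.

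**Figure D2:**
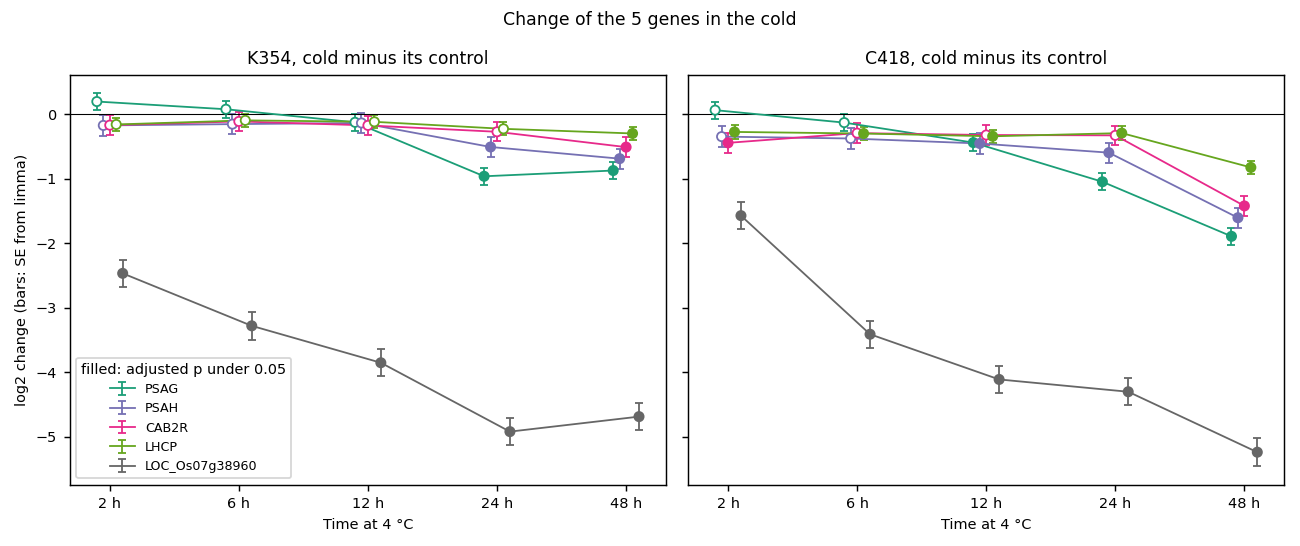
Log2 change from the control of the same line at each time at 4 °C, for K354 (left) and C418 (right), with SE bars from limma. Filled points passed an adjusted p of 0.05. PSAG, PSAH, CAB2R and LHCP lie between -0.87 and -0.30 at 48 h in K354 and between -1.89 and -0.82 in C418, and LOC_Os07g38960 runs below them at every time.

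The comparison of the lines asked whether K354 and C418 differed in the level of these genes before and during the cold. In the control none of the 5 genes differed, where 9.47% of all probe sets did. At 2, 6 and 24 h none differed, with 15.2%, 18% and 11.4% of all probe sets called. At an unadjusted limma p under 0.05, 2 genes differed in the control, 3 at 2 h, 3 at 6 h and 0 at 24 h. An unadjusted t-test, which the study names beside SAM, gave 3, 3, 2 and 0. The shares above are for the adjusted p and do not apply to these unadjusted counts, for which no share is given. At 12 h 2 genes were higher in K354, where 7.12% of all probe sets were higher and 16.2% differed, and at 48 h all 5 were, with 12.2% of all probe sets higher and 20.4% different. At 12 h PSAH was higher in K354 by 0.50 (SE 0.16, adjusted p = 0.028) and LOC_Os07g38960 by 0.72 (SE 0.21, adjusted p = 0.019). These 2 calls depended on single arrays, with 0 of 5 genes called without K354 12 h replicate 2, without C418 12 h replicate 1 or without C418 12 h replicate 3, and 1 without K354 12 h replicate 3. After scaling to the hybridization controls 0 of 5 genes passed at 12 h.

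At 48 h no array of K354 overlapped an array of C418 for any of the 5 genes. The share of all probe sets without such overlap is not given here, so this count has no background to be read against. The log2 difference, K354 minus C418, was 0.75 for PSAG (SE 0.13, adjusted p = 7.4e-05), 1.09 for PSAH (SE 0.16, adjusted p = 4.6e-06), 0.96 for CAB2R (SE 0.15, adjusted p = 1.6e-05) and 0.54 for LHCP (SE 0.10, adjusted p = 0.00021). LOC_Os07g38960 was higher in K354 by at least 1.12-fold (adjusted p = 0.00075), since C418 was below the 25th percentile, and with values set to that percentile as a floor the difference did not pass (adjusted p = 0.45). The result rests on the spread taken from all 12 groups. Fitted on the 6 arrays of 48 h alone, PSAH (adjusted p = 0.037) and LOC_Os07g38960 (0.034) passed, while PSAG (0.055), CAB2R (0.074) and LHCP (0.15) did not. Without any single array all 5 genes stayed past the threshold in the 12-group fit.

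The difference of the cold responses, the log2 change in K354 minus that in C418, was tested as an interaction. No gene passed at 2, 6, 12 or 24 h. Of all probe sets 0.382%, 0.141%, 0.646% and 0.686% had a higher change in K354 at these times and 1.24%, 0.25%, 1.12% and 0.873% a lower one. At an unadjusted limma p under 0.05 the number was 1, 0, 0 and 1 of 5, and no share of all probe sets is given for that rule. At 48 h 4 of the 5 genes passed, all with a smaller decrease in K354, where 5.15% of all probe sets were higher by this test and 2.74% lower. The difference was 1.02 for PSAG (95% interval 0.64 to 1.4, adjusted p = 0.00054), 0.92 for PSAH (0.46 to 1.37, adjusted p = 0.0086), 0.91 for CAB2R (0.48 to 1.35, adjusted p = 0.0061) and 0.53 for LHCP (0.23 to 0.82, adjusted p = 0.022). For LOC_Os07g38960 it was 0.55 (-0.06 to 1.17, adjusted p = 0.31), and it turned to -0.22 with the floor at the 25th percentile, so that no direction can be given. Fitted on the 4 groups of this comparison alone, the interaction passed for PSAG (adjusted p = 0.017) and not for PSAH (0.091), CAB2R (0.12) or LHCP (0.19). The LHCP call was also lost without C418 48 h replicate 1, where the difference was 0.34 (adjusted p = 0.0696), without C418 control replicate 3 (adjusted p = 0.0503), and with the arrays scaled to the poly-A controls (0.11). PSAH and CAB2R stayed past the threshold without that C418 48 h array, at 0.67 and 0.61.

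At the earlier times the intervals leave room for moderate differences. At 24 h the interaction was 0.08 for PSAG (95% interval -0.29 to 0.46), 0.09 for PSAH (-0.37 to 0.54), 0.06 for CAB2R (-0.38 to 0.49) and 0.07 for LHCP (-0.23 to 0.36). For LOC_Os07g38960 the early course was steeper in K354 at 2 h, with an interaction of -0.89 (-1.51 to -0.28) that did not pass over all probe sets (adjusted p = 0.19).

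**Figure D3:**
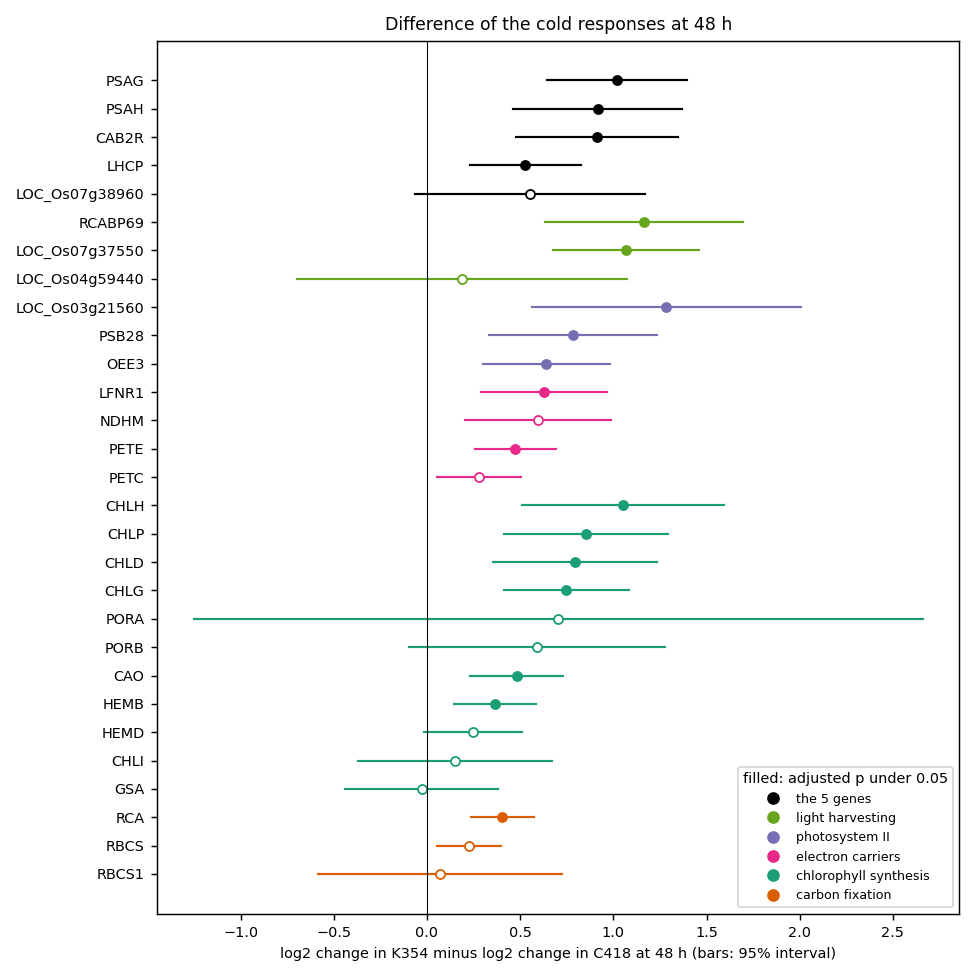
Difference of the cold responses at 48 h, the log2 change in K354 minus that in C418, with 95% intervals from limma, for the 5 genes and for 24 further genes of photosynthesis and chlorophyll synthesis. Filled points passed an adjusted p of 0.05. The values of PSAG, PSAH, CAB2R and LHCP run from 0.53 to 1.02, and 14 of the 24 further genes passed, all above 0.

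The 3 arrays of C418 at 48 h were widely spread for several of the genes. Among the 12 groups, the SD of log2 intensity was widest in this group for PSAH (0.51), CAB2R (0.57) and LHCP (0.36), second widest for PSAG (0.31) and in place 4 for LOC_Os07g38960 (0.33). It was not shown to be particular to these genes, since RCABP69, for example, had an SD of 1297 in intensity in this group at a mean of 2913. The SE given for the changes of PSAH, CAB2R and LHCP in C418 at 48 h rests on the narrower spread pooled over the 12 groups. Over 14 settings of the limma fit the highest adjusted p of these decreases was 0.00065 for PSAH, 0.0020 for CAB2R and 0.0048 for LHCP. Replicate 1 was the lowest of the 3 arrays and replicate 2 the highest for PSAH, CAB2R and LHCP. For PSAG replicate 3 was the highest, and for LOC_Os07g38960 replicate 1 was. Over all 36 arrays, the deviations from the group mean correlated at r = 0.95 between PSAH and LHCP, 0.93 between CAB2R and LHCP and 0.85 between PSAH and CAB2R. Those of PSAG correlated with the other 4 genes at 0.04 to 0.20, and those of LOC_Os07g38960 with PSAH, CAB2R and LHCP at -0.23 to -0.03. Replicates 1 and 2 of C418 at 48 h had the widest deviations of PSAH (-0.485 and 0.528), CAB2R (-0.609 and 0.507) and LHCP (-0.367 and 0.34). The high correlations lean on these arrays, and none is given without them. Genes on 1 array share its RNA, labeling and scan, and which of these the shared deviations come from was not tested.

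**Figure D4:**
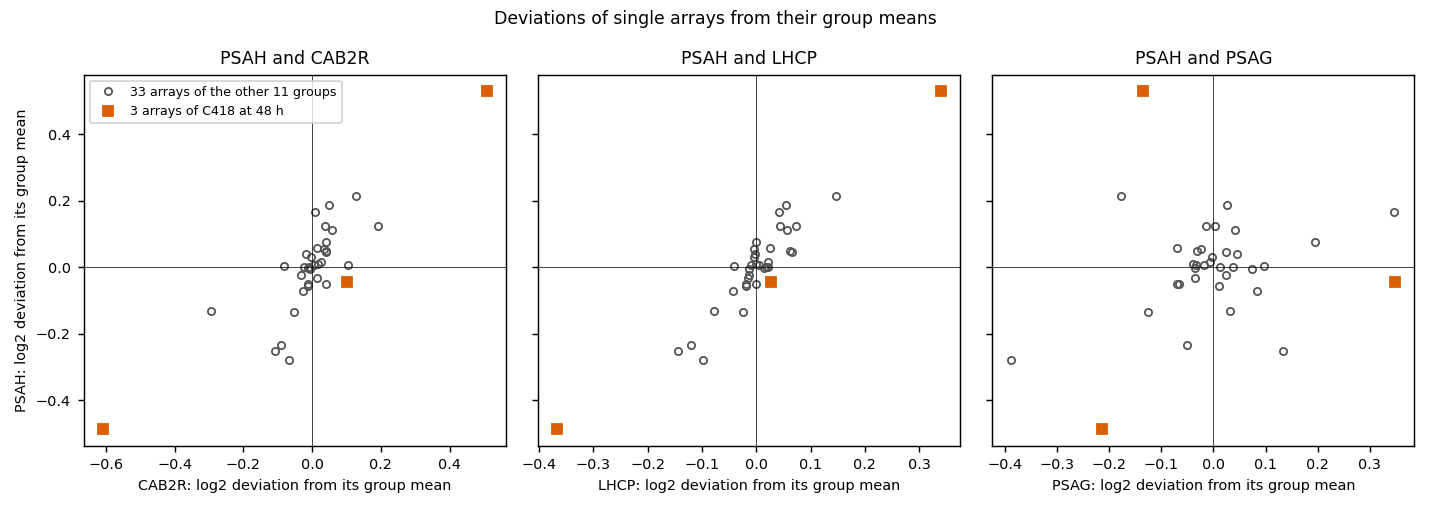
Deviation of single arrays from their group mean in log2 intensity, PSAH on the vertical axis against CAB2R, LHCP and PSAG on the horizontal axes. Squares are the 3 arrays of C418 at 48 h and open circles the 33 arrays of the other 11 groups. PSAH deviates with CAB2R (r = 0.85) and LHCP (r = 0.95) and hardly with PSAG (r = 0.20). The squares include the widest deviations of PSAH, CAB2R and LHCP.

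In the order of the 12 group means, C418 at 48 h was last for PSAG, PSAH, CAB2R and LHCP. For LOC_Os07g38960 its 3 arrays and 1 each of K354 at 24 h, K354 at 48 h and C418 at 24 h lay below the 25th percentile. The order of these groups therefore cannot be read. The arrays of C418 at 48 h lay apart from the next group for PSAH (C418 at 24 h), CAB2R (K354 at 48 h) and LHCP (C418 at 12 h). For PSAG they overlapped the next group, K354 at 24 h. The top of the order was the K354 control for PSAH (mean 8131), CAB2R (13148), LHCP (12901) and LOC_Os07g38960 (808). It was followed by the C418 control for CAB2R (12699), LHCP (12746) and LOC_Os07g38960 (585), with overlapping arrays for LHCP alone. PSAH differed in that the K354 groups of 12, 6 and 2 h, at means of 7401, 7308 and 7206, overlapped each other and stood beside the C418 control at 7194. PSAG was highest in C418 at 2 h (6516), above the C418 control (6238) and K354 at 2 h (5912), none of which overlapped its neighbour above. In the middle of the order, from C418 at 6 h down to K354 at 48 h, neighbouring groups of CAB2R overlapped throughout.

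Over the 12 group means, with lines, times and arrays shared, PSAH, CAB2R and LHCP ran closely together, at r = 0.97 to 0.98. PSAG ran less closely with the other 4 genes (r = 0.72 to 0.80), as did LOC_Os07g38960 (r = 0.61 to 0.74). Among 2048 named genes above the median intensity, the most similar to PSAH were OEE3, a protein of the oxygen-evolving complex of photosystem II (r = 0.995), RCABP69, a chlorophyll a/b-binding protein (0.987), and GSTZ5, a glutathione S-transferase (0.986). For CAB2R they were RCABP69 (0.985), OEE3 (0.975) and LHCP (0.972), and for LHCP they were RCABP69 (0.979), PSAH (0.978) and GSTZ5 (0.973). For PSAG they were BASS4 (0.991), OsTrx01, a thioredoxin (0.986), and OsRR4, a response regulator of cytokinin signaling (0.981). For LOC_Os07g38960, among 2049 genes, they were tom2 (0.981), HSF12, a heat shock factor (0.972), and OsPDIL2-3, a protein disulfide isomerase-like protein (0.970).

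**Figure D5:**
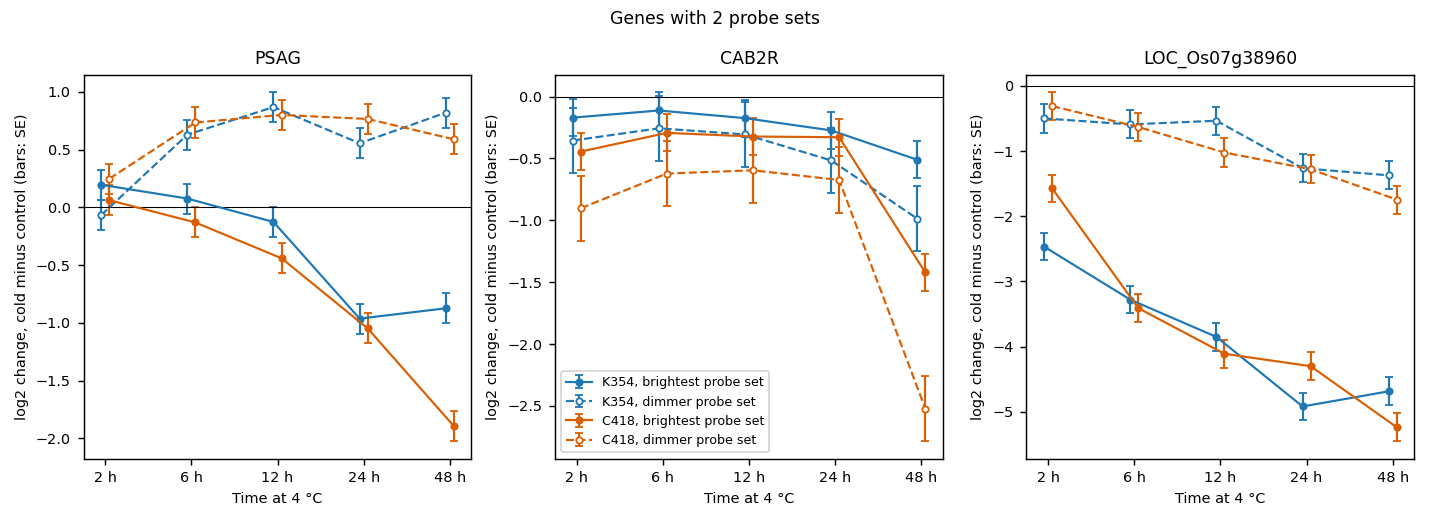
Log2 change from the control of the same line for the brightest probe set (solid, filled) and the dimmer probe set (dashed, open) of PSAG, CAB2R and LOC_Os07g38960, in K354 and C418, with SE bars from limma. The probe sets of PSAG part from 6 h on, to 0.82 against -0.87 in K354 and 0.59 against -1.89 in C418 at 48 h, whereas those of CAB2R run the same way.

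Other genes of the pathway were taken from lists of 24 genes that have a probe set. At 48 h 15 of 24 were lower in K354 and 22 of 24 in C418, with median log2 changes of -0.53 and -1.19, against -0.03 and -0.02 over all probe sets, of which 27.1% and 28.3% were lower. In K354 the number lower was 3, 3, 6 and 12 of 24 at 2, 6, 12 and 24 h, where 20.2%, 12.8%, 19.3% and 21.8% of all probe sets were, so that the counts at 2 and 6 h were no larger a share than that of all probe sets. In C418 it was 8, 9, 13 and 15, where 21.7%, 13.5%, 16.5% and 22.5% of all probe sets were. The interaction at 48 h passed for 14 of 24 genes, each with a higher log2 change in K354 than in C418, where 5.15% of all probe sets were higher by this test. The loci LOC_Os07g37550, LOC_Os04g59440 and LOC_Os03g21560 come from lists that the study chose for their change on these arrays, so their directions are not independent evidence.

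Of the other genes placed in the light-harvesting list, all 3 fell in both lines at 48 h. LOC_Os04g59440, annotated as a chlorophyll a/b-binding protein, had the deepest change, -4.17 in K354 and -4.36 in C418 (SE 0.30), and was already lower in the K354 control than in the C418 control, at a log2 difference of -1.096 (adjusted p = 0.017). Its interaction of 0.19 did not pass (adjusted p = 0.87). RCABP69 changed by -0.45 in K354 (SE 0.18, adjusted p = 0.041) and -1.62 in C418 (adjusted p = 1.2e-08), with an interaction of 1.16 (adjusted p = 0.0044). It read 6310, 6643 and 6652 in K354 at 48 h, from lowest to highest, against 8849, 8978 and 9016 in its control, and 1580, 2987 and 4171 in C418 at 48 h, against 8140, 8321 and 8408 in its control. LOC_Os07g37550, also a chlorophyll a/b-binding protein, changed by -0.61 in K354 and -1.68 in C418, with an interaction of 1.07 (SE 0.19, adjusted p = 0.00051). These values are of its brightest probe set. The second brightest averaged 4171 in K354 at 48 h, against 8615 in its control, and 1529 in C418, against 8142. The third averaged 5858 against 6985 in K354 and 3297 against 5776 in C418. The dimmest averaged 496 against 1268 in K354 and 262 against 941 in C418.

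The genes of photosystem II and of the electron carriers had negative changes at 48 h in both lines. LOC_Os03g21560, the 11 kD protein of photosystem II, changed by -1.92 in K354 and -3.21 in C418, and OEE3 by -0.51 in K354 and -1.15 in C418. PSB28 had -0.22 in K354, which did not pass (adjusted p = 0.26), and -0.998 in C418. The interaction passed for all 3, from 0.64 to 1.28. Among the electron carriers, LFNR1, a leaf ferredoxin-NADP reductase, changed by -0.98 in K354 and -1.61 in C418 and NDHM, a subunit of the NADH dehydrogenase-like complex, by -0.63 and -1.23. PETE, plastocyanin, changed by -0.39 in K354 and -0.86 in C418, and PETC, the Rieske protein, had -0.13 in K354 (adjusted p = 0.17) and -0.41 in C418. The interaction passed for LFNR1 (0.63) and PETE (0.47) and not for NDHM (0.59, adjusted p = 0.053) or PETC (0.28, adjusted p = 0.13).

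In chlorophyll synthesis, 7 of 11 genes were lower in K354 at 48 h and 10 of 11 in C418, against 27.1% and 28.3% of all probe sets. The deepest were PORB, a protochlorophyllide oxidoreductase, with -2.75 in K354 and -3.34 in C418 (SE 0.24), and PORA, a second form of that enzyme, with -1.83 and -2.54 (SE 0.68). At the other end HEMD had 0.18 in K354 and -0.06 in C418, neither of which passed, and HEMB had 0.10 in K354, which did not pass, and -0.27 in C418. CHLG, chlorophyll synthase, rose by 0.30 in K354 (adjusted p = 0.032) and had -0.45 in C418 (adjusted p = 0.0015), with an interaction of 0.75 (adjusted p = 0.0035). GLK1, a transcription factor that activates light-harvesting and chlorophyll synthesis genes, fell in both lines, by a log2 value of -1.12 in K354 and -1.58 in C418 (SE 0.12). The brightest probe set of GLK2, its close relative, had 0.02 and -0.07, while 2 other probe sets of GLK2 rose by 2.27 in K354 and by 2.41 and 2.42 in C418 and the fourth by 0.82 and 0.61.

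Of 3 carbon fixation genes, 0 were lower in K354 at 48 h and 2 in C418, where 27.1% and 28.3% of all probe sets were. The brightest probe set of the Rubisco small subunit gene RBCS had -0.03 in K354, which did not pass, and -0.25 in C418 at 48 h, but it read 99.9% of the highest value of the array in the K354 control and 99.99% in the C418 control. The next brightest probe set of RBCS averaged 2848 in K354 at 48 h, against 2890 in its control. In C418 that probe set averaged 2213 at 48 h, against 2581 in the control. The dimmest averaged 29.0 in K354 at 48 h, against 38.5 in its control, and 18.2 in C418, against 49.2. A probe set between these 2 in brightness averaged 2043 in K354 at 48 h, against 1968 in its control. In C418 it averaged 436 at 48 h, against 931 in the control, so that the controls of the lines already differed there. The log2 change of this last probe set was 0.05 in K354, which did not pass, and -1.16 in C418 (adjusted p = 0.0002). Its interaction was 1.21 (adjusted p = 0.028). RCA, Rubisco activase, had -0.13 in K354 (adjusted p = 0.061) and -0.54 in C418, with an interaction of 0.40 (adjusted p = 0.0021), and read 91.1% of the highest value of the array in the K354 control and 92.9% in the C418 control. RBCS1 was called higher in both lines from means of 15.1 in K354 at 48 h, against 9.93 in its control, and 13.9 in C418 at 48 h, against 9.51 in its control, all below the 25th percentile of the arrays, so that its order cannot be read.

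Of the 4 chlorophyll breakdown genes, 3 were higher and 1 was lower in both lines at 48 h, where 23.5% of all probe sets were higher in K354 and 25.1% in C418. SGR, the stay-green protein that takes part in the removal of magnesium from chlorophyll, rose by 1.4 on the log2 scale in K354 and by 2.18 in C418 at 48 h (SE 0.14), with an interaction of -0.78 (adjusted p = 0.014). It read 2192, 2614 and 2684 in K354 at 48 h, from lowest to highest, against 777, 834 and 1301 in its control, and 3528, 4070 and 4153 in C418 at 48 h, against 843, 862 and 884 in its control. NYC1, a chlorophyll b reductase, rose by 0.84 in K354 and by 0.68 in C418, and NOL, its partner, by 0.54 and 0.57. RCCR1, which acts later in the pathway, had -2.25 in K354 and -1.95 in C418. LOC_Os01g14410, an early light-induced protein of the study's lists, had -1.65 in K354 and -2.45 in C418, with an interaction of 0.80 that did not pass (adjusted p = 0.11).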

How the data were processed

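Whole shoots of K354 and C418 were hybridized to 36 Affymetrix rice arrays, 3 for each of 12 groups taken from the sample labels. The deposited intensity values are on a linear scale and were made by the authors: the sample records name MAS5, while the methods name GCOS and scaling to an invariant set in dChip, and which step set the scale is not given in the sources used here. The genome build is not given either, so no positions are reported. Of 57381 probe sets, 123 array controls were set apart and 57258 were tested on log2 intensities with limma 3.58.1 in R 4.3.3, in 1 model of 12 group means, with Benjamini-Hochberg adjustment over all probe sets. Figures were drawn with matplotlib 3.10.9 in Python 3.11.15. SAM, the test that the methods name, was not run, and limma took its place.

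Names came from the platform annotation and from RefSeq (ASM3414082v1, used for names only), in which 22436 probe sets had 1 gene and 95 had several. A gene was read from its brightest probe set. Pathway lists were matched by symbol, synonym or locus, since the gene tables held no product names. Of the other lists the genes with the lowest and highest changes at 48 h in C418 were named. The members and lists were chosen with earlier results of these data known. A group whose 3 arrays all lay below the 25th percentile of their array was given a bound. Depth has no meaning for arrays, and their number limits the precision.

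The fit was tested on simulated data for the comparison of C418 at 48 h with its control over 57258 probe sets: 24 of 50 changes of 1.5-fold, 42 of 50 of 2-fold, 50 of 50 of 4-fold and 50 of 50 of 8-fold were called, with 8 false calls. The simulated noise was independent between probe sets and had the same spread in all 12 groups, and few probe sets were changed. It therefore does not tell how the fit behaves with the wider, shared spread of C418 at 48 h. Alternatives were the normalization, scaling to control RNAs, a floor, a filter on dim probe sets, other fold thresholds, an unadjusted t-test, the groups in the fit, the replicate number as a block, and fits without each array in turn. Arrays that share a replicate number deviated from their group means with a mean correlation of 0.00287, against -0.00132 for other numbers. These means run over all pairs of groups, so they cannot show whether K354 and C418 arrays of the same time are paired. The study planted both lines in the same plates, and a pairing of the lines was not tested.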

Additional observations from a re-analysis of the deposited data

Results flagged for a closer look

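The cold response at 48 h differed between K354 and C418, by limma's test of the interaction, for 4 of the 5 genes. Of all probe sets, 5.15% had a higher and 2.74% a lower change in K354 by this test. The log2 change in K354 minus that in C418 was 1.02 for PSAG, 0.916 for PSAH, 0.911 for CAB2R and 0.526 for LHCP. Each was positive because the decrease was smaller in K354. Fitted on the 4 groups compared alone, PSAG passed (adjusted p = 0.017), while PSAH (0.091), CAB2R (0.12) and LHCP (0.19) did not. The LHCP call was also lost without C418 48 h replicate 1 (adjusted p = 0.0696).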

How the results depend on the processing

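At 48 h 5 of 5 genes stayed lower in each line without any single array and under each alternative, except the fold thresholds and the dimmest probe sets, with which 4 were lower, since that of PSAG rose. Requiring over 5-fold left 0, 1, 1, 1 and 1 genes in C418 in order of time, 1 and 1 in K354 at 24 and 48 h, 2 of 24 and 5 of 24 pathway genes in K354 and C418, and 0 between the lines at 12 and 48 h. Over 2-fold left 1, 1, 1 and 2 in C418 up to 24 h, 1 and 1 in K354 at 24 and 48 h, 7 and 13 pathway genes in K354 and C418, 0 and 2 between the lines at 12 and 48 h, and 1 interaction at 48 h. With the dimmest probe set 0 genes were lower in K354 at 2 and 12 h, where 20.2% and 19.3% of all probe sets were. Quantile normalization and median centring each left 1 and 1 in C418 at 2 and 6 h. Of all probe sets 11.4% and 10.6% were then lower with quantile normalization, and 10.3% and 10.6% with median centring. Scaling to the hybridization controls gave 5 and 5 in K354 at 12 and 24 h, 4 in C418 at 6 h, 23 pathway genes in K354 and 0 between the lines at 12 h. Of all probe sets 60.5% and 50.5% were then lower in K354 at 12 and 24 h, and 18.6% in C418 at 6 h. Scaling to the poly-A controls gave 5, 5 and 24 for the same K354 counts, 1 and 5 in C418 at 2 and 6 h, and 1 and 1 between the lines at 6 and 12 h. With it 73.9% and 82.4% of all probe sets were lower in K354 at 12 and 24 h, and 9.88% and 57.9% in C418 at 2 and 6 h. Between the lines 2.56% were lower and 11.5% higher in K354 at 6 h, and 4% and 4.61% at 12 h. Under the hybridization and poly-A control scalings 74.2% and 90.4% of all probe sets were lower in K354 at 48 h and 7.73% and 3.47% higher. In C418 79.5% and 91% were lower and 7.35% and 3.69% higher. As deposited, 27.1% were lower and 23.5% higher in K354 and 28.3% and 25.1% in C418. Between the lines at 6 h, the floor gave 1 gene, the filter on dim probe sets 2 and the replicate block 1. The gene of the block was LOC_Os07g38960 (adjusted p = 0.03), and the block changed no other call of the 5 genes. Of all probe sets 7.43% were lower and 10.9% higher in K354 at 6 h with the floor. With the filter 13.5% were lower and 19% higher, and with the block 7.25% and 10.5%. Fits of only the groups compared gave 2, 1 and 2 genes between the lines in the control and at 2 and 48 h, and 1 interaction at 48 h. The unadjusted t-test gave 4, 4, 4 and 5 genes in K354 up to 24 h and 3, 3, 2 and 4 between the lines up to 12 h. No share of all probe sets is given for that test, for the fits of only the groups compared or for the over 2-fold counts. The causes were not tested.

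Without single arrays the counts ran from 1 to 2, 1 to 2, 3 to 4, 3 to 4 and 5 to 5 in C418, in K354 from 1 to 1 up to 12 h, then 2 to 3 and 5 to 5, and from 13 to 14 (K354) and 22 to 22 (C418) for the pathway. Between the lines they ran from 0 to 0, 0 to 1, 0 to 1, 0 to 2, 0 to 0 and 5 to 5 from control to 48 h, and for the interaction from 3 to 4 at 48 h and 0 to 0 before.

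Values that turned sign did not pass the test before or after. For K354 minus C418 they were LHCP in the control under median centring (-0.0202), CAB2R and LHCP in the control (-0.0370 and -0.0698) and PSAG and CAB2R at 12 h (-0.168 and -0.0104) under hybridization control scaling, and CAB2R and LHCP in the control (-0.0204 and -0.0531), PSAG at 6 h (0.0622) and LOC_Os07g38960 at 24 h (0.0012) under poly-A scaling. The change of PSAG was -0.0113 in C418 at 2 h and -0.0449 in K354 at 6 h under hybridization control scaling, and -0.14 in K354 at 6 h under poly-A scaling. The interaction of LOC_Os07g38960 at 48 h was -0.22 with the floor. Without single arrays, the interaction ran from -0.088 to 0.28 for PSAG and from -0.029 to 0.23 for PSAH at 24 h, and from -0.10 to 0.31 for LOC_Os07g38960 at 6 h. The difference between the lines then ran from -0.36 to 0.0054 (24 h), -0.0078 to 0.083 (12 h) and -0.16 to 0.00028 (6 h) for PSAG, and from -0.29 to 0.063 (24 h) for LOC_Os07g38960.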
